A study of Mus musculus with 6 samples.

Results

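The genes described here are the axon guidance ligands and receptors of mouse cortex: 65 genes of 18283 in the count table, chosen by their symbols. They are the ephrins and Eph receptors, the class 3 to 7 semaphorins and the plexins, the Slit ligands and Robo receptors, and the netrins and Unc5 receptors, 8 families in all. The Eph receptor Epha2 was left out of the selection. The rule goes by symbol and uses no measured value, but it was drawn up, and Epha2 set aside, with earlier results of these data known.

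RNA sequencing was done on cortex of wild-type (WT) mice that had received 1 of 2 adeno-associated viral vectors (AAV). AAV-GFP-GA carries green fluorescent protein fused to poly-GA, an aggregating dipeptide repeat protein of glycine and alanine. It is made from the C9orf72 repeat whose expansion underlies many inherited cases of ALS and frontotemporal dementia. AAV-GFP carries the fluorescent protein alone. Each vector was represented by 3 libraries, all labelled with a time of 5 months. The labels give no promoter or serotype of the vectors, no injected cell type, no strain or sex, and do not say whether 5 months is an age or a time after injection. They also do not say whether each library came from 1 animal, so the p-values measure the spread between these libraries, which may be partly technical.

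Axon guidance cues steer growing axons by attraction or repulsion. Ephrins are bound to the membrane and signal by contact with Eph receptors, in both directions. Secreted and membrane-bound semaphorins act through plexins, with neuropilins as co-receptors for most class 3 members. Slits repel through Robo receptors, and netrins attract through Dcc or repel through Unc5 receptors. In adult brain the same families are known for shaping synapses and dendritic spines, and several of them also pattern blood vessels.

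The libraries held 16748754 to 17576017 expected counts (estimated reads per gene, summed). All 8 markers of cortical projection neurons were detected in every library, with summed levels of 632, 622 and 615 CPM in AAV-GFP-GA and 648, 645 and 599.6 CPM in AAV-GFP. CPM, the reads of a gene scaled to library size, is the level used throughout. Markers of neighbouring tissue varied more. The 8 striatum markers summed to between 887 and 1096 CPM in AAV-GFP-GA and between 696 and 1433 CPM in AAV-GFP, and the 5 choroid plexus markers to between 42.7 and 539 CPM in AAV-GFP-GA and between 235 and 1124 CPM in AAV-GFP. The AAV-GFP-GA libraries and AAV-GFP replicate 3 had between 141 and 214 reads from 8 intestinal marker genes, 1 of which was at 0 in every library, while AAV-GFP replicates 1 and 2 had 38 and 35. AAV-GFP replicate 3 had 1 read from 4 Y-linked genes, and the other libraries had between 2018 and 2270. Where AAV-GFP replicate 3 and the other two AAV-GFP libraries lay apart, values without that library and against it alone are therefore given for the members with low p-values and for some of the others.

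No axon guidance member passed the test of AAV-GFP-GA against AAV-GFP cortex after adjustment over all genes. Of the 65 members, 63 had enough reads to be tested among 14324 genes, and 0 passed an adjusted p of 0.05 in edgeR's quasi-likelihood test, where 0.0209% of all tested genes passed. Those were the 3 genes Nes, Klf4 and Klf2. DESeq2 and limma-voom also gave 0 members. The smallest adjusted p of a member was 0.742. The sizes were small: the 95% interval of the fold change lay within 1.5-fold in either direction for 57 of the 63 tested members and within 2-fold for 62. The exception at 2-fold was Ntn5.

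Before adjustment, 7 of the 63 tested members (11.1%) had p under 0.05, against 6.64% of all tested genes. Of these, 6 were higher in AAV-GFP-GA, 9.52% of members against 3.19% of all tested genes, and 1 was lower, 1.59% of members against 3.45%. The 6 were Sema7a, Unc5a, Plxna1, Robo4, Ntn5 and Sema4a, and the 1 was Epha7, with adjusted p-values between 0.742 and 0.746 by edgeR. In 5 tested members (7.94%) all 3 AAV-GFP-GA libraries lay above all 3 AAV-GFP libraries, against 6.09% of all tested genes. These 5 were Sema7a, Unc5a, Robo4, Plxnb1 and Sema3f. All 3 AAV-GFP-GA libraries lay below in 0 tested members, against 5.79% of all tested genes. The fold change was above 1 for 42 members (66.7%), against 48.6% of all tested genes. It was above 1 for 36 members without AAV-GFP replicate 3 and for 44 against that library alone. The share of all tested genes was not taken in those fits. The median log2 fold change, AAV-GFP-GA over AAV-GFP, was 0.048 over members and -0.0039 over all tested genes. In absolute size the medians were 0.086 and 0.082, so the members moved about as far as other genes.

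**Figure D1:**
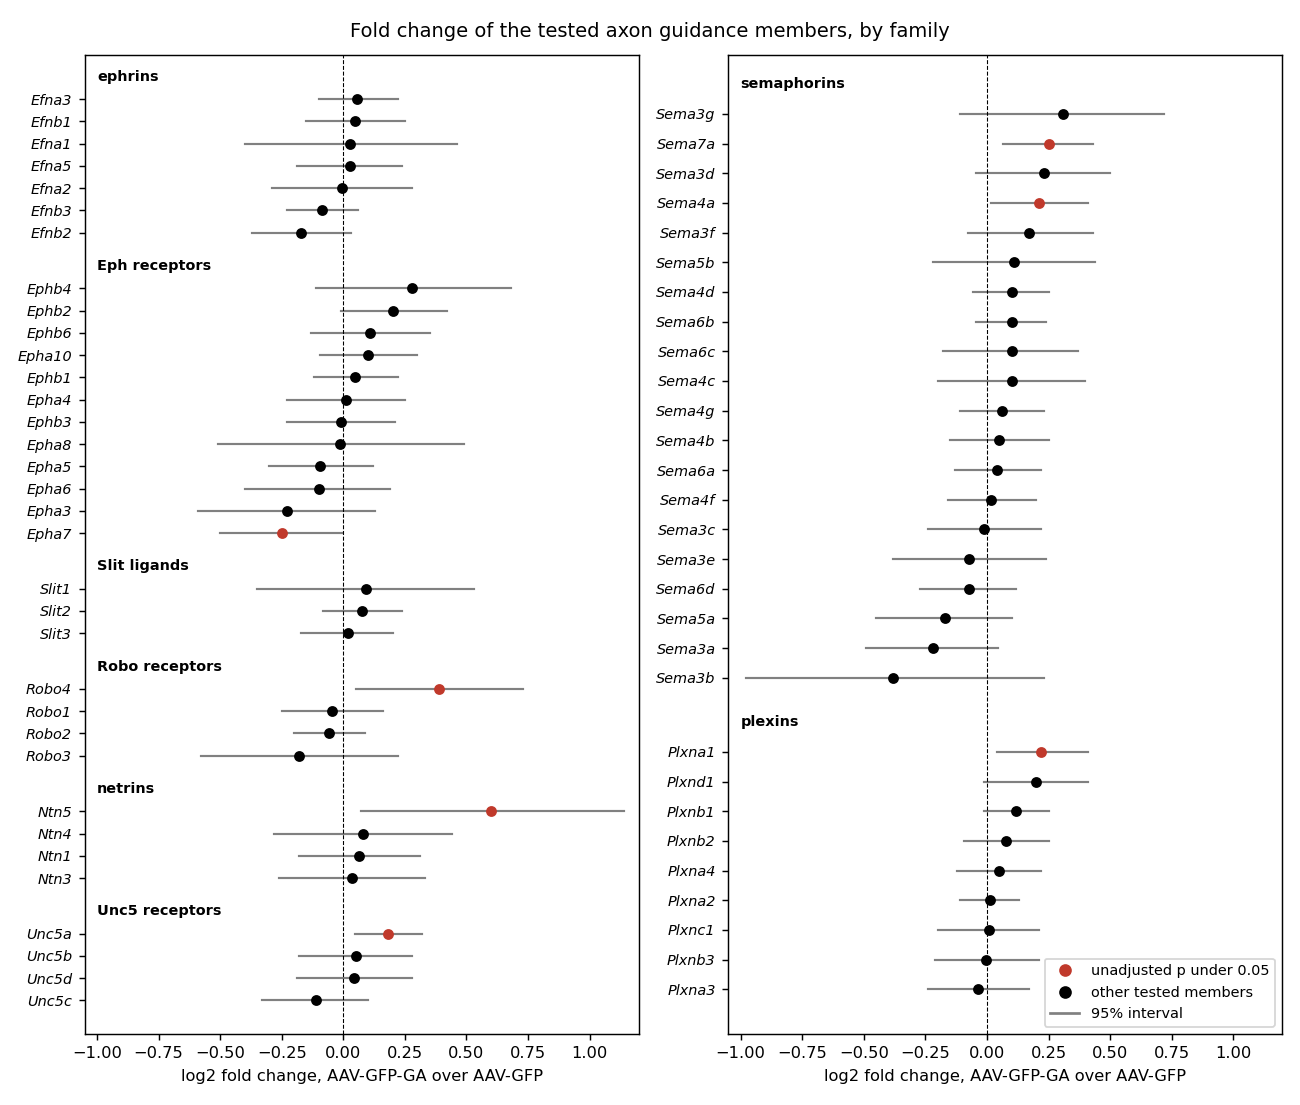
Log2 fold change of AAV-GFP-GA over AAV-GFP for the 63 tested members, grouped by family, where points are edgeR estimates and bars their 95% intervals, on an axis in log2 units, and red marks an unadjusted p under 0.05. The bars of most members cross 0, and the estimates run from -0.38 for Sema3b to 0.60 for Ntn5.

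The 2 members with the smallest p-values are shown first with the sequence before their start, because the 3 genes that passed adjustment include Klf2 and Klf4, which encode Krüppel-like factors that bind CACCC-type sites. Each line gives 250 bases before a transcript start on the plus strand, from RefSeq on GRCm38.p6, in lower case with CACCC or its reverse complement GGGTG in capitals. Both windows lie within the outer bounds of their genes, which have more than 1 start.
Sema7a, chr9:57939862-57940111: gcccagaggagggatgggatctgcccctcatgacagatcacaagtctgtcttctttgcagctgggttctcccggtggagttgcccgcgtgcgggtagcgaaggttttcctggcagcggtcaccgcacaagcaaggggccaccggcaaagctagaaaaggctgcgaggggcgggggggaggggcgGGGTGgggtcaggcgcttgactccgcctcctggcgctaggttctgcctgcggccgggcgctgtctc
Unc5a, chr13:54949161-54949410: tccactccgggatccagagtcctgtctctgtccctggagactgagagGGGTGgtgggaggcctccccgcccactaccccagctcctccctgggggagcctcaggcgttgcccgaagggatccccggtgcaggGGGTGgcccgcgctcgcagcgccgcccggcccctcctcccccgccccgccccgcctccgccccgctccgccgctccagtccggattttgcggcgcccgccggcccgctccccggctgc
The Sema7a window held 1 such match and was 66.4% G or C, and the Unc5a window held 2 and was 76.8% G or C. Windows of the same length were found for 56 of the 65 members, 72 in all because some genes have several starts. CACCC or GGGTG occurred in 53 of these 72 windows (73.6%) and in 52% of 32851 windows over all genes. The ETS core CCGGAA or its reverse complement TTCCGG, searched in the same way, was in neither of the 2 printed windows, in 9.72% of member windows and in 12% of all windows. Neither motif contains the other. A match describes the letters only, and base composition was not matched between the sets.

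Sema7a (Entrez gene 20361, chromosome 9, 57939596 to 57962865, plus strand, GRCm38.p6) encodes a semaphorin anchored to the membrane by a lipid tail, which acts through Plxnc1 and integrins. It was the member with the highest level per kilobase of exon, 56.4 ± 2.67 CPM per kb in AAV-GFP-GA and 47.5 ± 5.66 CPM per kb in AAV-GFP (SD, n = 3 each). Its levels were 186, 195 and 177 CPM in AAV-GFP-GA and 152, 140.4 and 177 CPM in AAV-GFP. All AAV-GFP-GA libraries were higher, but AAV-GFP replicate 3 all but met the lowest of them, and the separation of the groups came from AAV-GFP replicates 1 and 2. On the log2 scale the fold change was 0.25 ± 0.082 (SE), unadjusted p of 0.0127, adjusted p of 0.742 by edgeR. Without AAV-GFP replicate 3 it was 0.35 ± 0.061 with an adjusted p of 0.0488 by edgeR, the sole member past the threshold in any fit that was run. With a term in the fit that sets AAV-GFP replicates 1 and 2 apart, so that AAV-GFP-GA is compared with AAV-GFP replicate 3, it was 0.070 ± 0.076. In this fit, the library set term, AAV-GFP replicate 3 has no replicate of its own, and its spread is taken from the other libraries. That library also stands apart in Y-linked reads, and the fit cannot tell this difference from that of the vector.

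Unc5a (Entrez gene 107448, chromosome 13, 54945151 to 55006018, plus strand) encodes a netrin receptor that mediates repulsion. It had 126, 122 and 121 CPM in AAV-GFP-GA and 115, 101 and 108 CPM in AAV-GFP. The groups did not overlap, and unlike Sema7a the difference was of like size against AAV-GFP replicate 3 and against the other two AAV-GFP libraries. On the log2 scale the fold change was 0.18 ± 0.062 in all libraries (unadjusted p of 0.0136, adjusted p of 0.742 by edgeR), 0.18 ± 0.080 with the library set term and 0.19 ± 0.063 without AAV-GFP replicate 3. Without AAV-GFP replicate 2 its log2 fold change was 0.14 ± 0.064.

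Plxna1 (Entrez gene 18844, chromosome 6, 89316313 to 89362613, minus strand) encodes a plexin that serves class 3 semaphorins together with neuropilins. Its levels were 129, 132 and 111 CPM in AAV-GFP-GA and 116, 98.0 and 105 CPM in AAV-GFP. The groups overlapped, since AAV-GFP-GA replicate 3 lay below AAV-GFP replicate 1. On the log2 scale the fold change was 0.22 ± 0.083, and 0.24 ± 0.11 with the library set term. An antisense gene, Gm26811, covers 10.7% of its exonic length, and without a stated strand setting the reads of that stretch cannot be assigned.

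Robo4 (Entrez gene 74144, chromosome 9, 37401902 to 37414023, plus strand) encodes the Robo receptor of endothelium, the cells lining blood vessels. It had 7.96, 8.12 and 9.12 CPM in AAV-GFP-GA and 5.86, 5.50 and 7.85 CPM in AAV-GFP. The groups did not overlap, with AAV-GFP replicate 3 just under the lowest AAV-GFP-GA library. Its log2 fold change was 0.39 ± 0.15 in all libraries, 0.57 ± 0.14 without AAV-GFP replicate 3 and 0.10 ± 0.17 with the library set term.

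Ntn5 (Entrez gene 243967, chromosome 7, 45684022 to 45694556, plus strand) encodes a secreted netrin. It had 5.15, 6.93 and 4.90 CPM in AAV-GFP-GA and 5.21, 2.75 and 3.23 CPM in AAV-GFP. AAV-GFP replicate 1 lay inside the AAV-GFP-GA range and the other two AAV-GFP libraries lay below it. The log2 fold change of 0.60 ± 0.24 was the highest of the tested members, with a wide 95% interval from 0.071 to 1.14. The gene Sec1 on the other strand covers 23.4% of the exonic length of Ntn5.

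Sema4a (Entrez gene 20351, chromosome 3, 88435959 to 88461182, minus strand) encodes a membrane-spanning semaphorin known from immune regulation. It had 45.6, 44.2 and 41.4 CPM in AAV-GFP-GA and 34.0, 36.5 and 42.6 CPM in AAV-GFP. AAV-GFP replicate 3 lay inside the AAV-GFP-GA range. The log2 fold change was 0.21 ± 0.090 in all libraries, 0.31 ± 0.072 without AAV-GFP replicate 3 and 0.037 ± 0.089 with the library set term.

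Epha7 (Entrez gene 13841, chromosome 4, 28813066 to 28967503, plus strand) encodes a receptor for A-type ephrins and was the 1 member with an unadjusted p under 0.05 in the lower direction. It had 90.9, 75.8 and 75.2 CPM in AAV-GFP-GA and 109, 101 and 79.4 CPM in AAV-GFP. AAV-GFP replicates 1 and 2 lay above the AAV-GFP-GA range and AAV-GFP replicate 3 inside it. The log2 fold change was -0.25 ± 0.11 in all libraries and -0.37 ± 0.082 without AAV-GFP replicate 3, but 0.022 ± 0.11 with the library set term, where its sign changed.

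**Figure D2:**
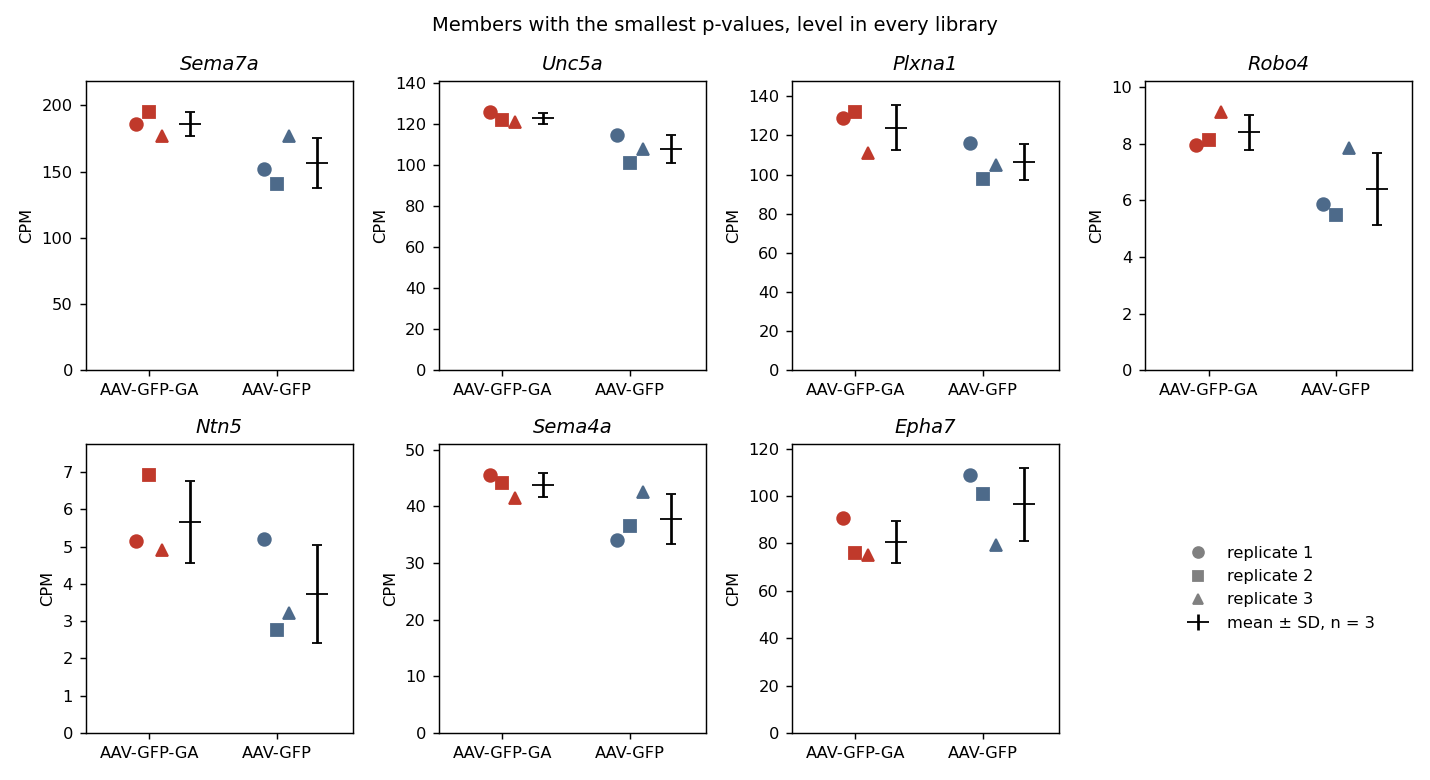
Levels in CPM of the 7 members with an unadjusted p under 0.05, a point per library, with the mean and SD of 3 libraries beside each group; every axis starts at 0. AAV-GFP replicate 3 (blue triangle) sits next to the AAV-GFP-GA points for Sema7a, Robo4, Sema4a and Epha7 but not for Unc5a, Plxna1 or Ntn5.

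Leaving out AAV-GFP replicate 3 changed the count of low p-values most. Without it 20 members (31.7%) had an unadjusted p under 0.05, against 19.8% of all tested genes. Of these, 12 were higher (19.0% of members against 9.50% of all tested genes) and 8 lower (12.7% against 10.3%), and 1 passed adjustment (1.59% against 0.499%). The 12 included Plxnb1, Plxnd1, Sema4d, Sema5b and Sema6b, and the 8 included Epha5, Epha6, Unc5c, Efnb2, Sema5a and Sema6d. The library set term sets the AAV-GFP-GA libraries against AAV-GFP replicate 3 alone. Its p-values therefore say how that library stands and assume that it varies like the others. Vector and Y-linked reads differ together in this fit and cannot be told apart. In it 8 members (12.7%) had an unadjusted p under 0.05, against 6.60% of all tested genes. All 8 were higher, against 3.80% of all tested genes higher and 2.81% lower: Epha6, Slit1, Unc5a, Efna3, Ntn5, Plxna4, Sema3e and Sema6d. With this term 0 members passed adjustment, against 0.0628% of all tested genes. In the fit without AAV-GFP replicate 3, 6 of these 8 had a negative log2 fold change: Epha6, Sema3e and Sema6d, which had an unadjusted p under 0.05 there, and Slit1, Efna3 and Plxna4, which did not. Without AAV-GFP replicate 2, 1 member (1.59%), Sema3b, had an unadjusted p under 0.05, against 3.34% of all tested genes. It was lower, where 1.57% of all tested genes were higher and 1.78% lower, and 0 members passed adjustment, against 0.0138%.

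By position among the 6 libraries, AAV-GFP replicate 2 stood further apart than the other two AAV-GFP libraries. It was the highest or lowest of the 6 libraries for 34 of the 63 tested members (54.0%), against 42.6% of all tested genes, and it was the lowest for 23. AAV-GFP replicate 3 lay inside the AAV-GFP-GA range for 28 members (44.4%), against 46.0% of all tested genes. AAV-GFP replicate 1 did so for 25 members (39.7%) and AAV-GFP replicate 2 for 17 (27.0%), against 39.3% and 35.8% of all tested genes.

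**Figure D3:**
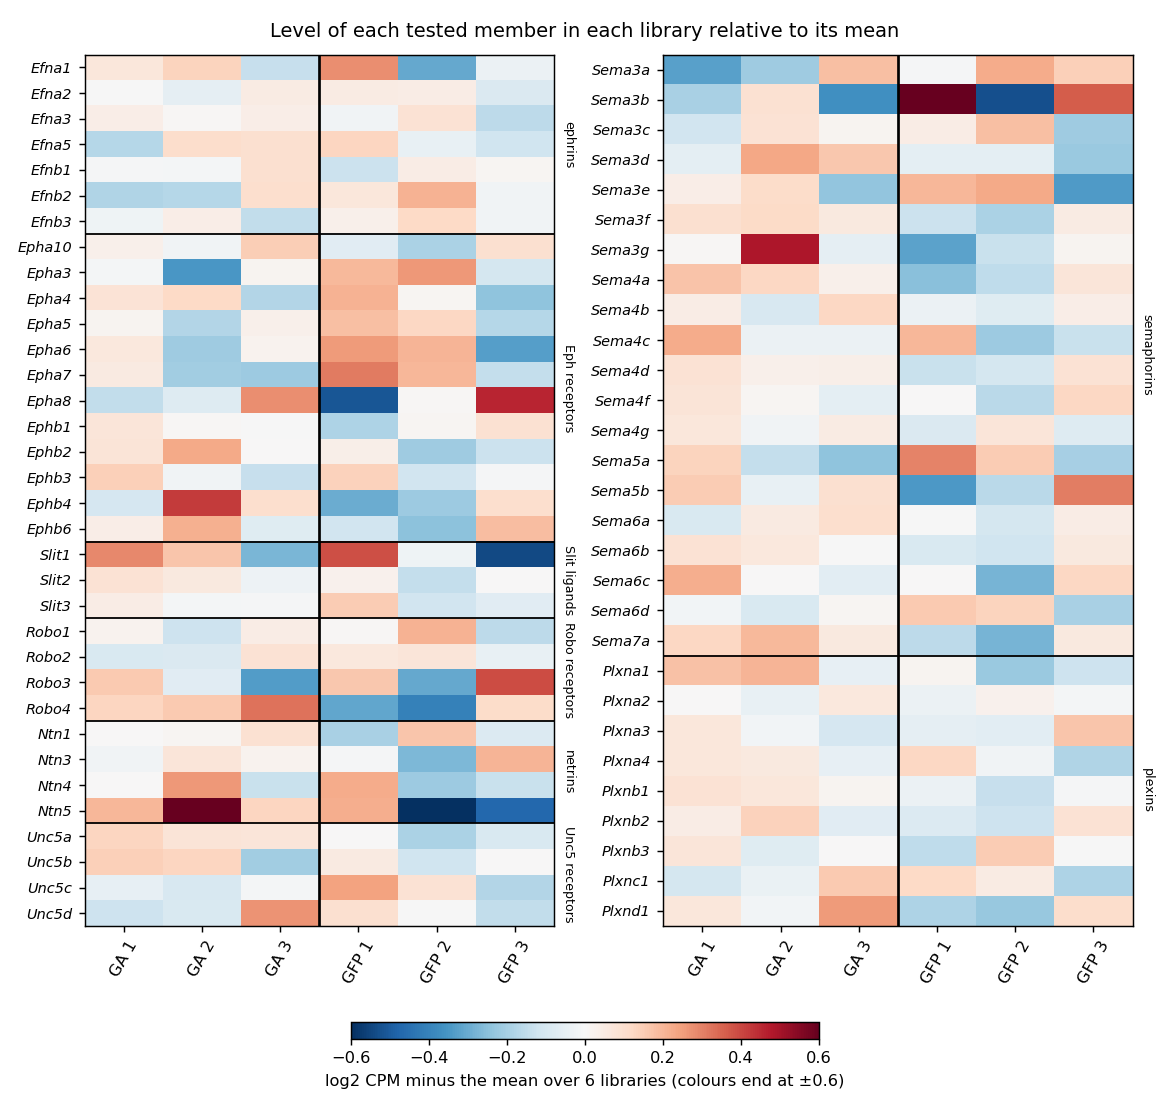
Log2 CPM of each tested member in each library minus the mean over the 6 libraries, with colours ending at 0.6 in either direction; GA stands for AAV-GFP-GA and GFP for AAV-GFP, and rows are grouped by family. Epha3, Epha5, Epha6 and Epha7 are red in AAV-GFP replicates 1 and 2 and blue in replicate 3, while Sema7a, Robo4 and Plxnd1 are blue in replicates 1 and 2.

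Among the Eph receptors, 13 genes with 12 tested, 6 had fold changes above 1 and 6 below, with a median log2 fold change of -0.00072. The A-type receptors leaned lower, with 2 of 7 above 1 and a median of -0.093, and the B-type receptors higher, with 4 of 5 above 1 and a median of 0.11. Neither subgroup held a member past adjustment. With the library set term the lean of the A-type receptors turned, with 5 of 7 above 1 and a median of 0.022, and 3 of 5 B-type receptors were above 1, with a median of 0.0031. Without AAV-GFP replicate 3 the A-type median was -0.19 and the B-type median 0.19. Epha4, a receptor that binds both ephrin types, had 230.0, 236 and 192 CPM in AAV-GFP-GA and 251, 219 and 184 CPM in AAV-GFP. Its groups overlapped fully and its log2 fold change was 0.0098 ± 0.11. Ephb6, whose kinase domain is inactive, had 108, 122 and 100.2 CPM in AAV-GFP-GA and 97.2, 88.7 and 120.0 CPM in AAV-GFP. AAV-GFP replicate 3 was close to the highest AAV-GFP-GA library, and the log2 fold change was 0.11 ± 0.11 in all libraries, 0.25 ± 0.081 without AAV-GFP replicate 3 and -0.12 ± 0.10 with the library set term.

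Epha6 shows how far the AAV-GFP libraries differed among themselves. It had 98.8, 81.7 and 96.1 CPM in AAV-GFP-GA and 113, 109 and 75.3 CPM in AAV-GFP. The 3 AAV-GFP-GA libraries lay between the 2 high AAV-GFP libraries and the low one, and the log2 fold change was -0.27 ± 0.077 without AAV-GFP replicate 3 and 0.29 ± 0.10 with the library set term. Summed levels of 5 hippocampus markers were 225, 195 and 174 CPM in AAV-GFP-GA and 245, 236 and 169 CPM in AAV-GFP, also high in AAV-GFP replicates 1 and 2 and low in replicate 3. Within AAV-GFP-GA, however, Epha6 was lowest in replicate 2 and the hippocampus sum in replicate 3. The sum of the cortical markers was also lowest in AAV-GFP replicate 3, at 648, 645 and 599.6 CPM over the AAV-GFP libraries. The striatum sum was not, at 696, 1433 and 1407 CPM. The part of such markers in the A-type receptor values was not tested, and in whole tissue fewer cells of a type and less RNA per cell cannot be told apart. Epha2, outside the selection, had 2.75, 3.83 and 2.77 CPM in AAV-GFP-GA and 1.14, 0.956 and 1.39 CPM in AAV-GFP, a log2 fold change of 1.42 ± 0.25 with an adjusted p of 0.349 by edgeR. The counts of the Eph family do not include it.

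The ephrins, ligands of these receptors, were 8 genes with 7 tested, 4 above and 3 below 1, with a median log2 fold change of 0.025. Without AAV-GFP replicate 3, 2 of 7 were above 1 and the median was -0.025. Efnb3, a B-type ephrin known as a barrier at the midline, had 114, 119 and 105 CPM in AAV-GFP-GA and 118, 126 and 114 CPM in AAV-GFP. The groups overlapped and the log2 fold change was -0.086 ± 0.066. Efnb2, the B-type ephrin of arteries and also of neurons, had 51.7, 52.0 and 62.8 CPM in AAV-GFP-GA and 61.4, 67.7 and 57.8 CPM in AAV-GFP. Its log2 fold change was -0.17 ± 0.090, the lowest of the family, with AAV-GFP-GA replicate 3 above 2 of the AAV-GFP libraries. Efna3, an A-type ephrin, varied little within AAV-GFP-GA, at 56.6, 55.3 and 56.4 CPM, against 54.2, 58.5 and 49.3 CPM in AAV-GFP.

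There were 2 members with too few reads to be tested, the receptor Epha1 with 20 reads over the 6 libraries and the ligand Efna4 with 15. Efna4 had 0, 0.113 and 0.0577 CPM in AAV-GFP-GA and 0.419, 0.120 and 0.173 CPM in AAV-GFP. The AAV-GFP-GA values were all lower, and with this few reads a difference was not detectable.

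All 20 semaphorins were tested, 14 of them above and 6 below a fold change of 1, with a median log2 fold change of 0.078. Without AAV-GFP replicate 3, 14 semaphorins were above 1, and with the library set term 11 were, with a median of 0.038. Their summed level was 855, 846 and 823 CPM in AAV-GFP-GA and 813, 793 and 818 CPM in AAV-GFP. The sums did not overlap, but this rested on Sema7a. Without it, a sum formed after its values were seen, they were 669, 652 and 646 CPM in AAV-GFP-GA and 661, 653 and 641 CPM in AAV-GFP, which overlap. The class 4 members, membrane-spanning ligands of B-type plexins, were above 1 in 6 of 6, from 0.018 for Sema4f to 0.21 for Sema4a on the log2 scale, but in 3 of 6 with the library set term. Of the 7 secreted class 3 members 3 were above 1 and 4 below, with a median of -0.013. Sema3a, the repellent that acts through Nrp1, had 31.2, 33.8 and 44.3 CPM in AAV-GFP-GA and 38.9, 45.6 and 43.1 CPM in AAV-GFP, with a log2 fold change of -0.22 ± 0.12. Sema3f, which acts through Nrp2, had 9.16, 9.30 and 8.94 CPM in AAV-GFP-GA and 7.84, 7.53 and 8.89 CPM in AAV-GFP. Its groups did not overlap, by a small margin to AAV-GFP replicate 3, and its log2 fold change was 0.17 ± 0.11.

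Sema6b, a membrane-spanning ligand of A-type plexins and after Sema7a the semaphorin with most reads, had 94.7, 93.4 and 89.1 CPM in AAV-GFP-GA and 83.8, 82.2 and 93.1 CPM in AAV-GFP. AAV-GFP replicate 3 lay inside the AAV-GFP-GA range. The log2 fold change was 0.10 ± 0.064 in all libraries and -0.010 ± 0.066 with the library set term. Sema5a, a ligand with thrombospondin repeats, had 73.5, 60.6 and 56.7 CPM in AAV-GFP-GA and 82.3, 74.5 and 58.4 CPM in AAV-GFP, and its relative Sema5b had 16.2, 14.1 and 15.6 CPM in AAV-GFP-GA and 11.5, 13.0 and 18.1 CPM in AAV-GFP. These 2 class 5 members ran in opposite directions across the AAV-GFP libraries. Sema5a had a log2 fold change of -0.17 ± 0.13 in all libraries, -0.30 ± 0.10 without AAV-GFP replicate 3 and 0.12 ± 0.13 with the library set term. For Sema5b the values were 0.11 ± 0.15, 0.32 ± 0.10 and -0.24 ± 0.12 in the same fits.

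The 9 plexins, the semaphorin receptors, were all tested, with 7 above and 2 below a fold change of 1 and a median log2 fold change of 0.049. With the library set term 7 of 9 plexins were again above 1, with a median of 0.016. Their summed level was 838, 829.8 and 830.1 CPM in AAV-GFP-GA and 798, 764 and 785 CPM in AAV-GFP, a mean of 833 ± 4.54 CPM against 782 ± 17.2 CPM (SD, n = 3 each). The sums did not overlap, and AAV-GFP replicate 3 lay with the other AAV-GFP libraries. In sums also formed after the values were seen, they still did not overlap without Plxna1, at 709, 698 and 719 CPM in AAV-GFP-GA and 683, 666 and 679.7 CPM in AAV-GFP. Without Plxnd1 they did, at 721, 719.7 and 697 CPM in AAV-GFP-GA and 700.4, 669 and 665 CPM in AAV-GFP. Plxnb1, the receptor of Sema4d, had 97.6, 96.4 and 93.1 CPM in AAV-GFP-GA and 89.8, 83.6 and 91.4 CPM in AAV-GFP. Those groups did not overlap. The log2 fold change was 0.14 ± 0.055 without AAV-GFP replicate 3 and 0.066 ± 0.069 with the library set term. In all libraries it was 0.12 ± 0.059, with an adjusted p of 0.751 by edgeR. The plexins with most reads did not show a difference of that size. Plxna2, a receptor of class 6 semaphorins, had 182, 176 and 189.7 CPM in AAV-GFP-GA and 178, 185 and 181 CPM in AAV-GFP, with a log2 fold change of 0.012 ± 0.055. Plxna4, which serves class 3 and class 6 semaphorins, had 146, 145 and 134 CPM in AAV-GFP-GA and 152, 137 and 123 CPM in AAV-GFP, with a log2 fold change of 0.049 ± 0.077. The 95% interval of Plxna2 ran from -0.11 to 0.13 on the log2 scale, among the narrowest of the members.

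Ligand and receptor pairs known from blood vessels were read together with Robo4. Plxnd1, the receptor of Sema3e and abundant in endothelium, had 117, 110.1 and 133 CPM in AAV-GFP-GA and 98.1, 95.3 and 119.7 CPM in AAV-GFP. AAV-GFP replicate 3 lay inside the AAV-GFP-GA range, and the log2 fold change was 0.20 ± 0.10, 0.31 ± 0.076 without that library and 0.0026 ± 0.095 with the library set term. Its ligand Sema3e had a log2 fold change of -0.071 ± 0.14. Ephb4, the venous receptor of Efnb2, had 4.86, 6.99 and 5.60 CPM in AAV-GFP-GA and 4.25, 4.48 and 5.60 CPM in AAV-GFP, and Sema3g, a semaphorin of arterial endothelium, had 4.81, 6.71 and 4.62 CPM in AAV-GFP-GA and 3.83, 4.36 and 4.85 CPM in AAV-GFP. Both were highest in AAV-GFP-GA replicate 2, with log2 fold changes of 0.28 ± 0.18 for Ephb4 and 0.31 ± 0.19 for Sema3g. Unc5b, a netrin receptor of vessel tips, had a log2 fold change of 0.051 ± 0.10. The summed level of 8 endothelial markers was 205, 241 and 207 CPM in AAV-GFP-GA and 193, 167 and 198 CPM in AAV-GFP, with no overlap. Like Ephb4 and Sema3g, it was highest in AAV-GFP-GA replicate 2. Robo4 and Plxnd1 were highest in AAV-GFP-GA replicate 3 instead, and within AAV-GFP-GA Plxnd1 was lowest in replicate 2. In the endothelial list 2 of 8 markers (25.0%) had an unadjusted p under 0.05, against 6.64% of all tested genes. Both were higher, against 3.19% of all tested genes, and none passed adjustment. The median log2 fold change of the list was 0.20, against -0.0039 over all tested genes. The part of endothelial RNA in the Robo4, Plxnd1, Ephb4 and Sema3g values was not tested.

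The 3 Slit ligands were above a fold change of 1, from 0.017 for Slit3 to 0.090 for Slit1 on the log2 scale, and of the 4 Robo receptors 1 was above and 3 were below. Both counts depended on AAV-GFP replicate 3: without it 1 of 3 Slit ligands was above 1, and with the library set term 3 of 4 Robo receptors were. Slit1 varied widely within both groups, with 83.1, 76.4 and 56.2 CPM in AAV-GFP-GA and 89.2, 66.9 and 46.8 CPM in AAV-GFP. Its log2 fold change of 0.090 ± 0.20 was smaller than its error, and it became 0.62 ± 0.21 with the library set term, which rests on the low AAV-GFP replicate 3. In both groups the level of Slit1 fell from replicate 1 to replicate 3. With a term for the replicate number its log2 fold change was 0.11 ± 0.083. Slit2 had 47.6, 46.6 and 43.8 CPM in AAV-GFP-GA and 45.5, 40.5 and 44.8 CPM in AAV-GFP, an overlap, with a log2 fold change of 0.077 ± 0.072. Robo2, the most abundant Slit receptor here, had 141, 141 and 159 CPM in AAV-GFP-GA and 156, 157 and 145 CPM in AAV-GFP. Robo1, its close relative, had 55.2, 49.9 and 56.1 CPM in AAV-GFP-GA and 54.6, 62.8 and 48.8 CPM in AAV-GFP. Their groups overlapped, with log2 fold changes of -0.057 ± 0.066 for Robo2 and -0.045 ± 0.093 for Robo1. Robo3, which does not bind Slits in mammals with high affinity, had a log2 fold change of -0.18 ± 0.18.

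The 4 netrins were all above a fold change of 1, but only Ntn5 by more than 0.1 on the log2 scale. Ntn1, the classical netrin, had 12.4, 12.5 and 13.2 CPM in AAV-GFP-GA and 10.8, 13.9 and 11.7 CPM in AAV-GFP, with a log2 fold change of 0.065 ± 0.11. Ntn3 had 8.30, 8.85 and 8.54 CPM in AAV-GFP-GA and 8.38, 6.99 and 9.70 CPM in AAV-GFP, with a log2 fold change of 0.034 ± 0.14. The AAV-GFP-GA values were close together in both genes. For Ntn1 the AAV-GFP values lay on either side of them, and for Ntn3 AAV-GFP replicate 1 lay among them and the other two outside. Ntn4, a netrin of basement membranes, had a log2 fold change of 0.081 ± 0.16.

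Of the 4 Unc5 receptors 3 were above a fold change of 1. Unc5d, second to Unc5a in reads, had 60.3, 61.8 and 79.2 CPM in AAV-GFP-GA and 70.2, 65.7 and 59.4 CPM in AAV-GFP. AAV-GFP-GA replicate 3 was the highest of the 6 libraries and the other two AAV-GFP-GA libraries lay near the lowest AAV-GFP value, and the log2 fold change was 0.043 ± 0.11. Unc5c had 46.1, 44.5 and 47.3 CPM in AAV-GFP-GA and 56.4, 50.6 and 42.3 CPM in AAV-GFP. AAV-GFP replicate 3 lay below every AAV-GFP-GA library and the other two above. The log2 fold change was accordingly -0.11 ± 0.10 in all libraries, -0.22 ± 0.068 without AAV-GFP replicate 3 and 0.12 ± 0.088 with the library set term. The attractive netrin receptor Dcc, not a member, had a log2 fold change of -0.13 ± 0.093.

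Per kilobase of exon the members spanned a wide range. After Sema7a came Efnb3 at 35.4 ± 2.32 CPM per kb in AAV-GFP-GA and 37.6 ± 1.88 in AAV-GFP, then Epha4 at 34.6 ± 3.76 and 34.4 ± 5.32, Unc5a at 30.8 ± 0.669 and 27.1 ± 1.81, and Ephb6 at 29.3 ± 2.93 and 27.1 ± 4.30, in the same order of groups (SD, n = 3 each). Efnb3 and Epha4 did not differ beyond their spread in either group, and neither did Unc5a and Ephb6. Sema7a stood above Efnb3 by more than the spread in both groups. Among plexins Plxnd1 was at 17.4 ± 1.71 CPM per kb in AAV-GFP-GA and 15.1 ± 1.94 in AAV-GFP, and Plxna2 at 16.5 ± 0.613 in AAV-GFP-GA and 16.4 ± 0.358 in AAV-GFP. Their order differed between the groups and lay within the spread in both. The lowest tested members were Epha3, an A-type Eph receptor, at 0.826 ± 0.111 CPM per kb in AAV-GFP-GA and 0.968 ± 0.126 in AAV-GFP, and Sema3b, a secreted semaphorin, at 0.800 ± 0.131 in AAV-GFP-GA and 1.04 ± 0.389 in AAV-GFP. They did not differ beyond their spread. Sema3b had the lowest log2 fold change, -0.38 ± 0.27.

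**Figure D4:**
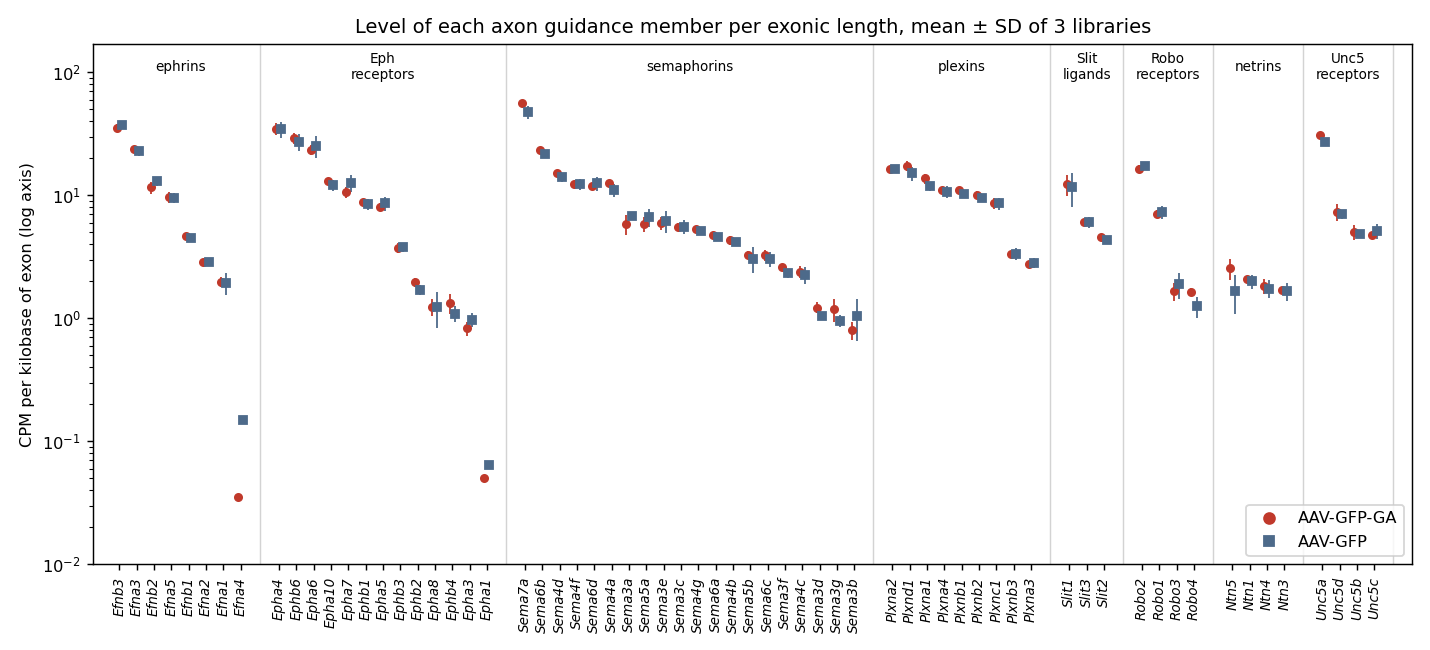
Level of each member as CPM per kilobase of exon, on a log axis, as mean and SD of 3 libraries, by family; no SD is drawn for Epha1 and Efna4, which had too few reads to be tested. The circles (AAV-GFP-GA) and squares (AAV-GFP) of most members lie close together, and outside the netrins members of a family differ far more than the groups do. Among netrins, Ntn5 was at 2.56 CPM per kb in AAV-GFP-GA and 1.68 in AAV-GFP, while the family was close together in AAV-GFP.

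Of the members, 3 lie on the X chromosome, Efnb1, Plxna3 and Plxnb3, and AAV-GFP replicate 3 differs from the rest in Y-linked reads. Their log2 fold changes were 0.048 ± 0.090, -0.036 ± 0.093 and -0.0024 ± 0.10 in all libraries. Without AAV-GFP replicate 3 they were 0.067 ± 0.10 for Efnb1, 0.046 ± 0.085 for Plxna3 and -0.0043 ± 0.10 for Plxnb3. With the library set term they were 0.015 ± 0.12, -0.18 ± 0.10 and 0.0062 ± 0.13 in the same order.

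Other genes of the guidance pathway, co-receptors and intracellular signalling genes, were 67, of which 66 were tested and 0 passed adjustment. Of the 66, 6 (9.09%) had an unadjusted p under 0.05, against 6.64% of all tested genes. Of these, 4 were higher and 2 lower, where 3.19% of all tested genes were higher and 3.45% lower. The median log2 fold change of the 66 was 0.039. The smallest p-value was that of Dpysl2, which encodes a collapsin response mediator protein that carries semaphorin signals to microtubules. It had 111, 124 and 133 CPM in AAV-GFP-GA and 145, 149 and 139 CPM in AAV-GFP. All AAV-GFP-GA libraries were lower. The log2 fold change, -0.24 ± 0.071, had an adjusted p of 0.742 in edgeR. Rnd1, a small GTPase that binds plexins, had 24.0, 23.4 and 22.2 CPM in AAV-GFP-GA and 21.1, 19.4 and 20.0 CPM in AAV-GFP, a log2 fold change of 0.20 ± 0.078. Neo1, a receptor of netrins and related to Dcc, had 109, 114 and 109 CPM in AAV-GFP-GA and 103, 97.9 and 101 CPM in AAV-GFP, a log2 fold change of 0.14 ± 0.055. The groups did not overlap in Rnd1 or in Neo1. These genes and Dpysl2 were named for the smallest p-values of the 66, and overlap was not counted over the list. Of all tested genes, 11.9% had groups without overlap. The neuropilins Nrp1 and Nrp2, co-receptors of class 3 semaphorins, had log2 fold changes of 0.12 ± 0.24 and -0.0077 ± 0.11.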

How the data were processed

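The authors deposited 1 table of expected counts per gene, a column per library, unscaled. The unit follows from the values, of which 7.32% to 7.81% per library were not whole. Per the submitters' processing notes, Bowtie2 2.2.5, RSEM 1.2.12 and the build mm10 were used, without role or order; libraries followed the BGI standard protocol after Trizol extraction, per the labels. For annotation and strand setting, the sources used here give nothing. One row without a gene name was left out, and 25 symbols that had become dates were restored by gene identifier.

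Counts were rounded and tested with edgeR 4.0.16 in R 4.3.3 (filterByExpr, trimmed mean of M values with factors of 0.991 to 1.01, two-sided quasi-likelihood test, p-values adjusted by Benjamini-Hochberg over the 14324 tested genes, threshold 0.05). The spread between replicates, as common biological coefficient of variation, was 7.92%. CPM used the scaled library sizes. Exonic lengths came from GENCODE M21 and coordinates from RefSeq GRCm38.p6, 1-based; 14 members overlap another gene's exons in part. The main fit did not pair libraries by replicate number. The library set term separates AAV-GFP replicates 1 and 2 from the other libraries and follows the intestinal reads, so it was made from the data, not the labels. Alternatives were DESeq2 1.42.0, limma 3.58.1 (voom), other scalings and filters, a replicate block, the library set term and leaving out each library. The test was checked on simulated data. Given in full are members with an unadjusted p under 0.05 and the 2 members with most reads in each family; others complete a role group. The members and gene lists were chosen with earlier results of these data known.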

Additional observations from a re-analysis of the deposited data

How the results depend on the processing

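The absence of members past an adjusted p of 0.05 held under the 8 alternatives that keep all libraries, and leaving out each library in turn gave 0 to 1 (Sema7a, without AAV-GFP replicate 3). The count of all changed genes, 3, was 10 with DESeq2, 9 with the library set term and 2 to 72 when each library was left out. Members with an unadjusted p under 0.05 were 7 in all libraries, beside 6.64% of all tested genes, and 1 to 20 without each library. The low end was without AAV-GFP replicate 2, beside 3.34% of all tested genes. The high end was without AAV-GFP replicate 3, beside 19.8%. The median log2 fold change of the members kept its sign, from 0.027 to 0.059 over all alternatives. Of 294 values of 21 members under 14 alternatives, 273 kept their direction and side of the threshold, 1 (Sema7a) passed it, and 20 in 12 members reversed; the cause was not tested.

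With the library set term the log2 fold changes that reversed were 0.022 for Epha7, -0.12 for Ephb6, 0.14 for Robo1, 0.018 for Robo2, -0.18 for Ntn3 and -0.010 for Sema6b. For the members that reversed when each library was left out, the range was -0.10 to 0.12 for Epha4, -0.13 to 0.055 for Robo1, -0.12 to 0.34 for Slit1, -0.091 to 0.12 for Unc5d, -0.012 to 0.17 for Ntn1, -0.078 to 0.16 for Ntn3, -0.015 to 0.037 for Plxna2 and -0.023 to 0.13 for Plxna4. Among the 7 members with low p-values the ranges were 0.17 to 0.35 for Sema7a, 0.14 to 0.23 for Unc5a and 0.43 to 0.92 for Ntn5. Deviations of same-numbered libraries correlated at 0.10, -0.12 and 0.06 over the tested genes, which does not settle whether they were handled together. The replicate block, a term for the replicate number, changed the SE of Slit1 from 0.20 to 0.083. For Ephb6 the SE went from 0.11 to 0.12. With the replicate block 2 genes and 0 members passed adjustment. Depth limits Epha1 and Efna4, which could not be tested. Interval width was not a matter of reads alone. The interval of Slit1, with 7204 reads in all, ran from -0.35 to 0.53. That of Efna2, with 628, was narrower, from -0.29 to 0.28, and that of Sema3b, with 352, wider, from -0.98 to 0.23.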
